A study of Homo sapiens with 12 samples.

Results

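The anaphase-promoting complex/cyclosome (APC/C) was examined through 10 genes that were selected by symbol from the 58233 genes of the count table. They encode its coactivators CDC20 and FZR1, its inhibitor FBXO5, its ubiquitin-conjugating (E2) enzymes UBE2C and UBE2S, the substrate securin (PTTG1) and the core subunits CDC27, CDC16, CDC23 and ANAPC1. RNA was sequenced from HCT116 cells, a human colorectal carcinoma line, in 4 groups of 3 biological replicates, which gave 12 libraries. All cells, controls included, carry a doxycycline-inducible transgene for the plant F-box protein OsTIR1 at the AAVS1 locus. The parental HCT116 Tet-OsTIR1 cells have no tag on SDS22. In the SDS22-degron line, which was isolated as a colony after CRISPR/Cas9 editing, the PPP1R7 alleles that encode SDS22 were fused to mAID-mClover, so that doxycycline (Dox) and the auxin IAA lead to degradation of the fusion protein. Both lines were harvested without treatment or after exposure for 48 h to Dox (2 µg/ml) combined with IAA (500 µM). The comparisons ask how Dox/IAA acts in each line, how the lines differ with and without treatment, and whether the effect of Dox/IAA differs between the lines (the interaction).

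The APC/C is a ubiquitin ligase that drives cells out of mitosis. CDC20 activates it at the metaphase-anaphase transition, once the spindle-assembly checkpoint is silenced, whereas FZR1 takes over in late mitosis and keeps the complex active through G1. UBE2C starts ubiquitin chains on the substrates and UBE2S extends them. FBXO5 restrains the complex in interphase, and the destruction of securin releases separase, which cleaves cohesin between sister chromatids.

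The libraries held 12133915 to 14657508 reads assigned to genes. All 10 genes were among the 16657 genes that passed the filter on low counts, and their own counts ranged from 240 for PTTG1 to 3054 for CDC20, so that none of them was limited by a count of 0. Levels are given as CPM, read counts scaled to the library size after TMM normalisation, and the biological coefficient of variation over all tested genes was 7.48%. PPP1R7 mRNA was found at 40.1 to 51.1 CPM in the 12 libraries. The degron acts on the protein, so that this level does not check the labels. Of 6 epithelial markers, EPCAM, KRT8, KRT18 and CDH1 had at least 857 counts in every library, CDH17 had 0 and VIL1 had 0 to 2. The leukocyte and endothelial markers PTPRC and PECAM1 had 0 to 1 counts and the fibroblast collagen COL3A1 had 0 to 4, whereas COL1A1 had 117 to 410 counts and was higher after Dox/IAA in both lines (log2 fold changes of 0.81 and 0.94). Of the epithelial markers, CDH1 was higher after Dox/IAA in both lines (0.36 in parental and 1.00 in SDS22-degron cells, interaction 0.64, adjusted p = 0.029), KRT8 (-0.39 and -0.33) and KRT18 (-0.47 and -0.29) were lower in both, and EPCAM (-0.12 and -0.00048) was not called. The part of these marker changes in the results was not tested. In RNA from a whole culture, fewer cells in a given cell-cycle phase and less mRNA per cell cannot be told apart.

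In SDS22-degron cells, Dox/IAA lowered the mRNA of 8 of the 10 genes (adjusted p under 0.05; 25.5% of all tested genes were lower) and raised that of 1, FZR1 (26% were higher). The 4 genes CDC20, UBE2C, PTTG1 and FBXO5 also passed the cut-off of the study, an unadjusted p under 0.05 with a log2 fold change beyond 1. Of the tested genes, 4.02% passed it downwards and 3.82% upwards. None of the 10 genes passed it upwards. The study set this cut-off for treated SDS22-degron against parental cells, with the likelihood ratio test. Here it was applied to another comparison, with the quasi-likelihood test. The treated and untreated SDS22-degron libraries did not overlap for any of the 10 genes, as was the case for 59.9% of all genes tested. The median log2 fold change of the 10 genes was -0.74, against 0.0046 for all tested genes. The decreases differed in size: they were strongest for CDC20 and UBE2C, intermediate for securin and FBXO5, smaller for UBE2S and ANAPC1, and slight for CDC27 and CDC23.

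**Figure D1:**
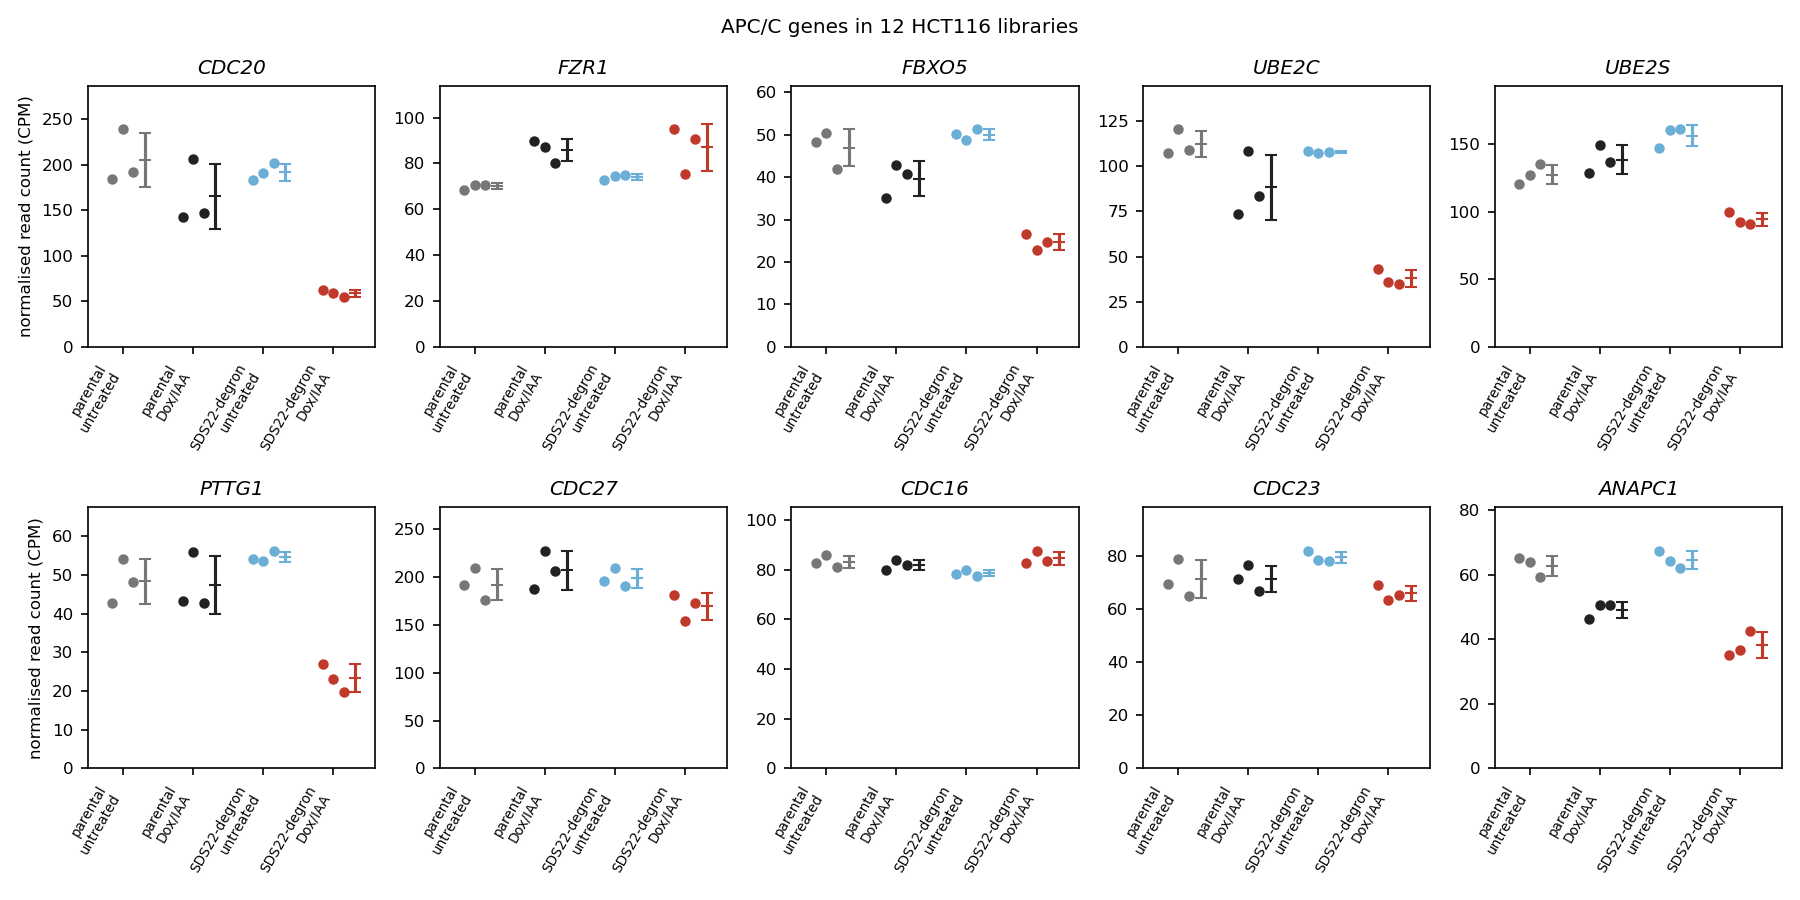
Normalised read counts (CPM, linear axis from 0) of the 10 genes in the 12 libraries. Points are libraries and bars show the mean ± SD (n = 3). The treated SDS22-degron libraries lie below all other libraries for CDC20, FBXO5, UBE2C, UBE2S, PTTG1 and ANAPC1, while FZR1 is higher in both treated groups and CDC16 differs little.

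Because several of these genes fell together, the letters of their promoters are shown. RefSeq promoter entries (GRCh38.p14) were found for 9 of the 10 genes, in 12 entries. UBE2C was not among them. In the 250 bases before each start site, both strands were searched for TTTGAA and TTTAAA (the cell-cycle genes homology region, CHR, as read by the DREAM and MMB complexes), for CCAAT (the box bound by NF-Y) and for the E2F-type letters TTTCGCGC, TTTCCCGC, TTTGGCGC and TTTGCCGC. TTTAAA reads the same on both strands and was counted as 1 site. TTTGAA occurs in 13.3% of all 35116 promoter entries, TTTAAA in 11.3%, CCAAT in 32% and any of the E2F-type letters in 2.79%. A CHR-type hexamer together with CCAAT occurs in 7.64% of entries. The last 150 bases before the start site are printed for CDC20, securin and FBXO5, which hold both kinds of letters and fell, and for FZR1, which rose. They were picked by motif and direction, so the printed set does not show whether the motifs go with the fall. UBE2S, ANAPC1, CDC27 and CDC23 also fell, and no CHR-type hexamer was found for them. Motif letters are in capitals, also where they lie on the opposite strand, as TTCAAA for TTTGAA or as ATTGG for CCAAT.
CDC20 (chr1:43358831-43358980, plus strand): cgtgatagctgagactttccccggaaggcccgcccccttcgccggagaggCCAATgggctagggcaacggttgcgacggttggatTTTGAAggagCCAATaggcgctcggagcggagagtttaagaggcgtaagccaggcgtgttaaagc
PTTG1 (chr5:160421705-160421854, plus strand): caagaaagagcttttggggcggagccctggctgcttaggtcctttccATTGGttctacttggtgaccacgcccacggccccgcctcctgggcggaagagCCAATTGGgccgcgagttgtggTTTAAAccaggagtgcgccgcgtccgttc
FBXO5 (chr6:152983042-152983191, minus strand): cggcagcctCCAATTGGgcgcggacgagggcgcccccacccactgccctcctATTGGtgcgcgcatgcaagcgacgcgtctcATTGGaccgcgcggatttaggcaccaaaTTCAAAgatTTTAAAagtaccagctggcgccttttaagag
FZR1 (chr19:3506161-3506310, plus strand): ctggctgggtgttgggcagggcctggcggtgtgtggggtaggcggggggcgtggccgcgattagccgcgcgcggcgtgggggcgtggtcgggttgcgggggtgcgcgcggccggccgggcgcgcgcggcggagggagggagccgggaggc

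CDC20 has TTTGAA 65 bases before its start, between CCAAT boxes at 100 and 55 bases. Another TTTGAA lies on the opposite strand at 178 bases, outside the printed stretch. In the PTTG1 promoter, TTTAAA lies 29 bases before the start and CCAAT letters begin at 103, 51 and 48 bases, the last pair overlapping as CCAATTGG. The other PTTG1 entry, which starts further downstream, has TTTAAA at 84 bases and CCAAT letters at 158, 106 and 103 bases. The FBXO5 entry shown has TTTGAA and TTTAAA at 40 and 31 bases and CCAAT letters at 141, 138, 98 and 68 bases, whereas the other FBXO5 entry, which starts further upstream, has none of these motifs. FZR1 has no capital letters in the printed stretch, and its only motif is a TTTGAA 226 bases before the start. Among the remaining genes, CCAAT was found for UBE2S, CDC27, CDC16 and CDC23, E2F-type letters for CDC16 and CDC23, and none of the motifs for ANAPC1. Thus a CHR-type hexamer was found for 4 of the 9 genes, CCAAT for 7, and both in the same entry for 3. Of the 4 genes, FZR1 rose. Either CHR-type hexamer occurs in 21.9% of all promoter entries. The shares are per entry, whereas the counts are per gene, and PTTG1, FBXO5 and FZR1 have 2 entries each. The motifs are matches of letters and do not show that a factor binds.

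CDC20 (ENSG00000117399), on chromosome 1 from 43358955 to 43363203, was the gene most changed by Dox/IAA in SDS22-degron cells among the 10. It was measured at 184, 239 and 193 CPM in untreated parental cells and at 143, 207 and 147 CPM in treated parental cells. Untreated SDS22-degron cells had 183, 191 and 202 CPM and treated SDS22-degron cells 62.1, 59.5 and 54.9 CPM. All treated SDS22-degron libraries were thus far below every other library, while the 2 parental groups overlapped and replicate 2 was the highest parental library in either condition. Between parental libraries of the same replicate number, the treated one was lower in 3 of 3 pairs. Dox/IAA lowered CDC20 mRNA 3.26-fold in SDS22-degron cells (log2 fold change -1.71 ± 0.12 SE, adjusted p = 4.86e-09). The parental log2 fold change amounted to -0.31 ± 0.12 (adjusted p = 0.0484). This parental call depended on single libraries. It was lost without replicate 2 (-0.18) or replicate 3 (-0.35) of the untreated parental cells and without replicate 1 (-0.21) or replicate 3 (-0.23) of the treated ones, and it held in 8 of 17 alternatives, with adjusted p between 0.000509 and 0.266. One of these was the fit with the replicate number as a block (-0.31, adjusted p = 0.0105).

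FZR1 (ENSG00000105325; chromosome 19, 3506273 to 3538330), the coactivator of late mitosis and G1, moved the opposite way. Its level was 68.5, 70.8 and 70.8 CPM in untreated and 89.9, 87.4 and 80.3 CPM in treated parental cells. In SDS22-degron cells it was 72.7, 74.7 and 74.9 CPM without and 94.8, 75.5 and 90.7 CPM with Dox/IAA. Every treated library was above every untreated library of either line, although replicate 2 of the treated SDS22-degron cells was so only by a small margin. FZR1 rose in parental cells (log2 fold change 0.29 ± 0.08, adjusted p = 0.00771) and in SDS22-degron cells (0.23 ± 0.08, adjusted p = 0.0179). The increase did not differ detectably between the lines (difference -0.06, 95% confidence interval -0.29 to 0.17). The call in SDS22-degron cells was lost without replicate 1 (0.20) or 2 (0.22) of the untreated and without replicate 1 (0.16) or 3 (0.18) of the treated SDS22-degron libraries, and with a GC correction per library (0.17). FZR1 overlaps MFSD12 (3538261 to 3574290) on the opposite strand, only at the ends of the 2 genes. MFSD12 had 1263 to 1696 counts against 812 to 1243 for FZR1. MFSD12 was also higher in treated parental cells (log2 fold change 0.20) but not in treated SDS22-degron cells (-0.09, adjusted p = 0.246).

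The balance between the coactivators was compared as the ratio of their counts per kb of exon, with the deposited gene length taken as exon length. How that length was defined is not given. The size of a ratio depends on it, whereas the change of a ratio between groups does not. The CDC20/FZR1 ratio was 7.64, 9.61 and 7.75 in untreated and 4.53, 6.73 and 5.21 in treated parental cells. It was 7.18, 7.28 and 7.68 in untreated SDS22-degron cells and 1.86, 2.24 and 1.72 in treated ones. The ratio was therefore lower in both treated groups than in their controls without overlap, and lowest in treated SDS22-degron cells. Between the treated lines the difference was -1.49 on the log2 scale, or 2.8-fold, with a pooled SD of 0.25. With 3 libraries against 3, a two-sided exact permutation test gave its smallest possible p of 0.1 (0.15 after adjustment over 24 comparisons of ratios). In parental cells the ratio was 1.53-fold lower with Dox/IAA (log2 difference -0.61, exact permutation p = 0.1).

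FBXO5 (ENSG00000112029; chromosome 6, 152970519 to 152983579), the interphase inhibitor also known as EMI1, had 48.3, 50.4 and 42.0 CPM in untreated and 35.0, 43.0 and 40.8 CPM in treated parental cells. In SDS22-degron cells it had 50.1, 48.8 and 51.2 CPM without and 26.7, 22.8 and 24.8 CPM with Dox/IAA. The treated SDS22-degron libraries were the lowest. The 2 parental groups overlapped, with the treated library lower in 3 of 3 pairs of the same replicate number. FBXO5 fell 2.02-fold in SDS22-degron cells (log2 fold change -1.01 ± 0.09, adjusted p = 7.54e-08). The parental change of -0.25 ± 0.09 (adjusted p = 0.0458) was lost without replicate 1 (-0.23) or 2 (-0.19) of the untreated and replicate 1 (-0.16) or 3 (-0.27) of the treated libraries, and held in 8 of 17 alternatives, the replicate block among them (adjusted p = 0.0395). The FBXO5/FZR1 ratio per kb averaged 1.02 ± 0.10 (SD, n = 3) and 1.02 ± 0.03 in the untreated parental and SDS22-degron cells, 0.70 ± 0.10 in treated parental cells and 0.43 ± 0.02 in treated SDS22-degron cells.

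UBE2C (ENSG00000175063; chromosome 20, 45812576 to 45816957) is the E2 enzyme that starts the chains. Its level was 107, 120 and 109 CPM in untreated and 73.3, 108 and 83.6 CPM in treated parental cells. It was 108, 107 and 108 CPM in untreated and 43.2, 35.9 and 34.8 CPM in treated SDS22-degron cells. As for CDC20, the treated SDS22-degron libraries stood apart and replicate 2 was the highest in both parental groups. UBE2C fell 2.84-fold in SDS22-degron cells (log2 fold change -1.51 ± 0.11, adjusted p = 8.03e-09) and by 0.35 ± 0.11 on the log2 scale in parental cells (adjusted p = 0.0196). The parental call was lost without replicate 2 of the untreated (-0.29) and without replicate 1 (-0.23) or 3 (-0.31) of the treated libraries, and held in 12 of 17 alternatives, the replicate block among them (adjusted p = 0.00861). Within pairs of the same number the treated library was lower in 3 of 3.

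UBE2S (ENSG00000108106; chromosome 19, 55399745 to 55407777), which extends the chains, behaved differently in the 2 lines. It was found at 121, 127 and 135 CPM in untreated and 129, 150 and 137 CPM in treated parental cells, which overlapped. SDS22-degron cells had 147, 161 and 161 CPM before and 99.7, 92.8 and 90.7 CPM after Dox/IAA. The SDS22-degron line was thus the highest group when untreated and the lowest when treated. UBE2S was the only member of the 10 that differed between the untreated lines (1.23-fold higher in SDS22-degron cells, log2 0.29 ± 0.07, adjusted p = 0.00436), and this call held in 17 of 17 alternatives. Its decrease with Dox/IAA in SDS22-degron cells was 1.66-fold (log2 -0.73 ± 0.07, adjusted p = 1.66e-07), against a parental log2 value of 0.12 (adjusted p = 0.22). The UBE2C/UBE2S ratio per kb went from 1.91 ± 0.15 (SD, n = 3) to 1.38 ± 0.17 in parental cells and from 1.498 ± 0.081 to 0.87 ± 0.06 in SDS22-degron cells, so that UBE2C exceeded UBE2S in every library except the 3 treated SDS22-degron ones. With reads on near-identical copies added to both genes, the ratio averaged 1.17 and 0.84 in untreated and treated parental cells and 0.92 and 0.54 in untreated and treated SDS22-degron cells, and UBE2C exceeded UBE2S only in the 3 untreated parental libraries. UBE2S overlaps RPL28 on the opposite strand, a ribosomal protein gene with 4307 to 7562 counts. With Dox/IAA, RPL28 did not follow UBE2S in SDS22-degron cells (log2 fold change 0.04, adjusted p = 0.758). RPL28 was lower with Dox/IAA in parental cells (-0.34, adjusted p = 0.00773). It was higher in treated SDS22-degron than in treated parental cells (0.44, adjusted p = 0.000731).

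Securin mRNA (PTTG1, ENSG00000164611; chromosome 5, 160421822 to 160428744) was at 42.6, 54.2 and 48.3 CPM in untreated and 43.3, 56.0 and 42.7 CPM in treated parental cells. In SDS22-degron cells it went from 54.1, 53.6 and 56.2 CPM to 27.0, 23 and 19.8 CPM. The parental groups overlapped almost completely, and all treated SDS22-degron libraries were below them. Dox/IAA lowered PTTG1 2.34-fold in SDS22-degron cells (log2 fold change -1.23 ± 0.12, adjusted p = 1.38e-07), while the parental value was -0.03 (95% confidence interval -0.27 to 0.21, adjusted p = 0.858). ESPL1, the separase that securin inhibits, fell by a similar amount in treated SDS22-degron cells (-1.36). The PTTG1/ESPL1 ratio per kb lay between 2.08 and 2.90 in all 12 libraries, with group means of 2.19, 2.37, 2.45 and 2.68 for untreated parental, treated parental, untreated SDS22-degron and treated SDS22-degron cells. Of the 4 comparisons of this ratio, that between the untreated lines gave an exact permutation p of 0.1 (1.12-fold higher in SDS22-degron cells) and the others gave 0.3 to 0.4.

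Of the core subunits, ANAPC1 (ENSG00000153107; chromosome 2, 111766271 to 111884690), the large scaffold subunit, changed most with Dox/IAA in SDS22-degron cells. Its level was 65.3, 63.8 and 59.3 CPM in untreated and 46.3, 50.6 and 50.6 CPM in treated parental cells, and 67.4, 64.2 and 62.0 CPM in untreated and 35.2, 36.7 and 42.7 CPM in treated SDS22-degron cells. Treated libraries were below untreated ones in both lines without overlap, and lowest in SDS22-degron cells. The log2 fold change was -0.76 ± 0.08 in SDS22-degron cells (adjusted p = 3.37e-07) and -0.35 ± 0.08 in parental cells (adjusted p = 0.00219), and the parental call held in 17 of 17 alternatives.

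CDC27, CDC16 and CDC23 encode subunits with tetratricopeptide repeats that form the arm on which the coactivators dock. CDC27 (ENSG00000004897; chromosome 17, 47117703 to 47189422) was at 192, 209 and 176 CPM in untreated and 187, 227 and 207 CPM in treated parental cells, and went from 196, 210 and 191 to 181, 154 and 174 CPM in SDS22-degron cells. The treated SDS22-degron libraries were below their own controls, and their range met that of the untreated parental cells. CDC27 was lower by 0.23 ± 0.08 on the log2 scale in treated SDS22-degron cells (adjusted p = 0.0257), and this call was lost without replicate 2 of the untreated (-0.21) or of the treated SDS22-degron cells (-0.17) and with scaling to library size only (-0.19). CDC23 (ENSG00000094880; chromosome 5, 138187648 to 138213343) was at 69.6, 79.1 and 65.1 CPM in untreated and 71.4, 76.6 and 66.8 CPM in treated parental cells, and at 82.0, 78.6 and 78.2 CPM in untreated and 69.3, 63.6 and 65.5 CPM in treated SDS22-degron cells. Its decrease in SDS22-degron cells (log2 -0.27 ± 0.08, adjusted p = 0.00684) held in 17 of 17 alternatives. CDC23 overlaps KIF20A (138178719 to 138187715), a mitotic kinesin on the opposite strand, only at the ends of the 2 genes. KIF20A had 560 to 2007 counts and fell by 1.47 on the log2 scale in the same comparison. Whether the counting separated the strands is not given in the sources used here.

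CDC16 (ENSG00000130177; chromosome 13, 114234887 to 114272723) was the gene of the 10 that changed least with Dox/IAA in SDS22-degron cells. It had 82.6, 85.8 and 81.3 CPM in untreated and 80.0, 83.8 and 81.9 CPM in treated parental cells, and 78.4, 80.0 and 77.7 CPM in untreated and 82.8, 87.6 and 83.6 CPM in treated SDS22-degron cells. Its treated SDS22-degron libraries were slightly above their controls, but the log2 fold change of 0.11 did not pass the test (95% confidence interval -0.02 to 0.23, adjusted p = 0.147). With a GC correction per library it was called higher (0.16).

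In parental cells, 4 of the 10 genes were called lower with Dox/IAA (15.7% of all tested genes) and 1, FZR1, higher (15.9%), and 2, FZR1 and ANAPC1, did not overlap between treated and untreated libraries (41.3% of all tested genes). None of the 10 passed the fold cut-off in either direction, as 0.792% and 2.35% of the tested genes did downwards and upwards. The median log2 fold change was -0.03, against 0.0015 for all tested genes. Of the 4 decreases only that of ANAPC1 was kept whichever library was left out of the unpaired fit. With the replicate number as a block, all 4 were called lower: CDC20 (adjusted p = 0.0105), UBE2C (0.00861), FBXO5 (0.0395) and ANAPC1 (0.00162). Between parental libraries of the same number, the treated one was lower in 3 of 3 pairs for each of the 4.

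The effect of Dox/IAA differed between the lines for 6 genes. For all 6 it was more negative in SDS22-degron than in parental cells (8.35% of all tested genes), and for none more positive (6.03%). The interaction, that is the log2 fold change in SDS22-degron minus that in parental cells, was -1.40 for CDC20 (adjusted p = 4.24e-05), -1.20 for PTTG1 (0.000126), -1.16 for UBE2C (9.71e-05) and -0.85 for UBE2S (4.16e-05). It was -0.77 for FBXO5 (adjusted p = 0.000663) and -0.40 for ANAPC1 (adjusted p = 0.0204), the latter being lost without replicate 1 of the treated SDS22-degron cells (-0.35). CDC20, UBE2C and PTTG1 also passed the fold cut-off in the interaction (2.46% of the tested genes downwards, 1.15% upwards). CDC27 (-0.34, adjusted p = 0.06) and CDC23 (-0.27, adjusted p = 0.102) did not pass, although CDC27 did so in 8 of 22 alternatives and CDC23 without replicate 2 of the untreated parental cells (-0.37). The interaction of CDC16 was 0.13 (95% confidence interval -0.05 to 0.31).

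**Figure D2:**
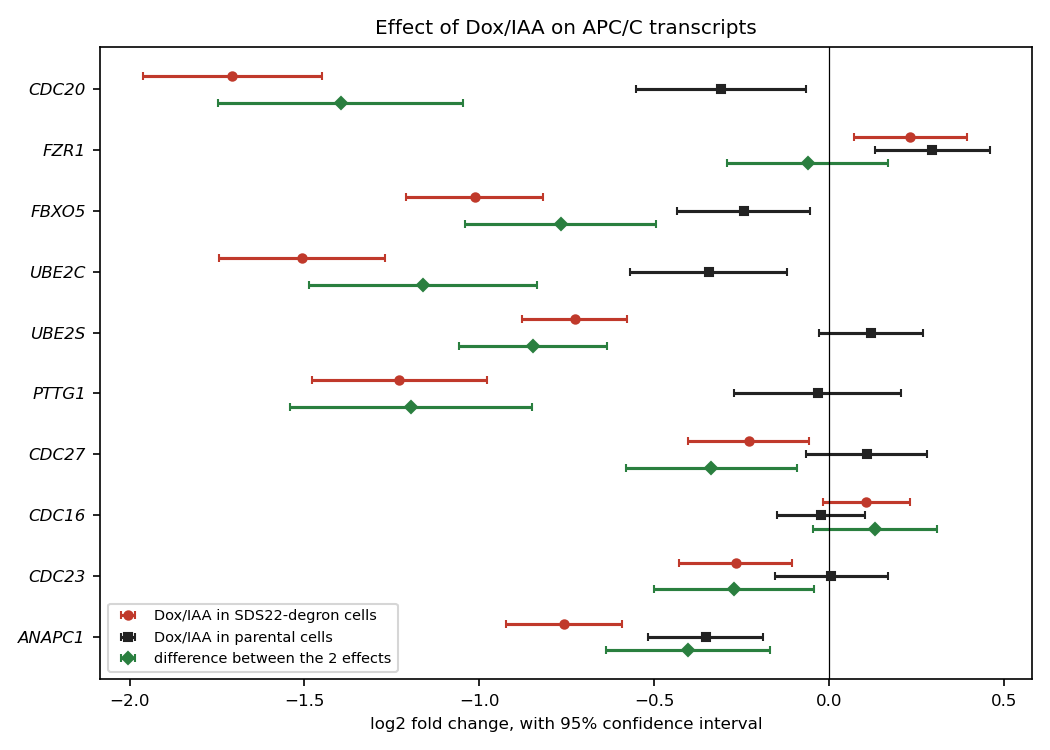
Log2 fold changes with Dox/IAA in SDS22-degron cells (circles) and parental cells (squares) and their difference (diamonds), with 95% confidence intervals from edgeR. The intervals of CDC20, FBXO5, UBE2C, UBE2S, PTTG1 and ANAPC1 in SDS22-degron cells lie left of those in parental cells, whereas those of FZR1 overlap, at 0.23 and 0.29.

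The treated lines were also compared with each other. This comparison uses the same treated SDS22-degron and treated parental libraries as the comparisons above and adds no further samples. Lower in SDS22-degron cells were 7 of the 10 genes (23.1% of all tested genes) and none was higher (21.8%). The fold cut-off was passed by CDC20, UBE2C and PTTG1 downwards and by none upwards (3.38% and 3.25% of all tested genes), and 7 genes did not overlap between the lines (52.9%). CDC20 was 2.81-fold lower (log2 -1.49 ± 0.12, adjusted p = 3.16e-08), UBE2C 2.33-fold (-1.22 ± 0.11), PTTG1 2.03-fold (-1.02 ± 0.12), FBXO5 1.60-fold (-0.68 ± 0.09) and UBE2S 1.47-fold (-0.55 ± 0.07). ANAPC1 (-0.36 ± 0.08) and CDC27 (-0.29 ± 0.08) were lower as well, the latter not without replicate 2 of the treated SDS22-degron cells (-0.22). FZR1 (0.02, 95% confidence interval -0.14 to 0.18), CDC16 (0.05, -0.08 to 0.17) and CDC23 (-0.11, -0.28 to 0.05) were not called.

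Without treatment, none of the 10 genes was lower in SDS22-degron than in parental cells (15% of all tested genes), and only UBE2S was higher (13.2%). None passed the fold cut-off, as 1.3% and 2.84% of the tested genes did, and 3 genes, UBE2S, FZR1 and CDC16, had libraries that did not overlap (43.5%). CDC23 had a log2 difference of 0.16 (adjusted p = 0.133), which was called without replicate 2 of the untreated parental cells (0.26). On the chromosomes of the 10 genes, the median difference between the untreated lines over all tested genes ranged from -0.13 on chromosome 1, which holds CDC20, to 0.08 on chromosome 2, which holds ANAPC1.

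The levels were also ordered per kb of exon, with the same deposited gene lengths, on whose definition the order between genes depends. In untreated parental cells CDC20 (101 ± 14.5 CPM per kb, SD, n = 3) and UBE2C (87.3 ± 5.50) came first with overlapping libraries, followed by UBE2S (45.7 ± 2.61). CDC27, PTTG1 and CDC16 came next at 28.2, 24.0 and 21.3 CPM per kb, each overlapping its neighbour. CDC23 followed at 15.4 CPM per kb, FBXO5 and FZR1 overlapped at 12.24 and 12.07, and ANAPC1 was lowest at 4.71. In untreated SDS22-degron cells the order was the same, with FBXO5 and FZR1 as the only neighbours that overlapped. In treated parental cells only FZR1 and FBXO5 changed places. In treated SDS22-degron cells, UBE2S (33.9 ± 1.69 CPM per kb), UBE2C (29.5 ± 3.56) and CDC20 (28.9 ± 1.80) overlapped as neighbours and were only slightly above CDC27 (24.8 ± 2.06) and CDC16 (21.7 ± 0.65). FZR1 (14.99 ± 1.75) overlapped CDC23 (14.3 ± 0.63) and, narrowly, PTTG1 (11.6 ± 1.80), and lay above FBXO5 (6.46 ± 0.50). These orders leave out reads on near-identical copies of some of the genes, which change several places, as given with the copies.

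**Figure D3:**
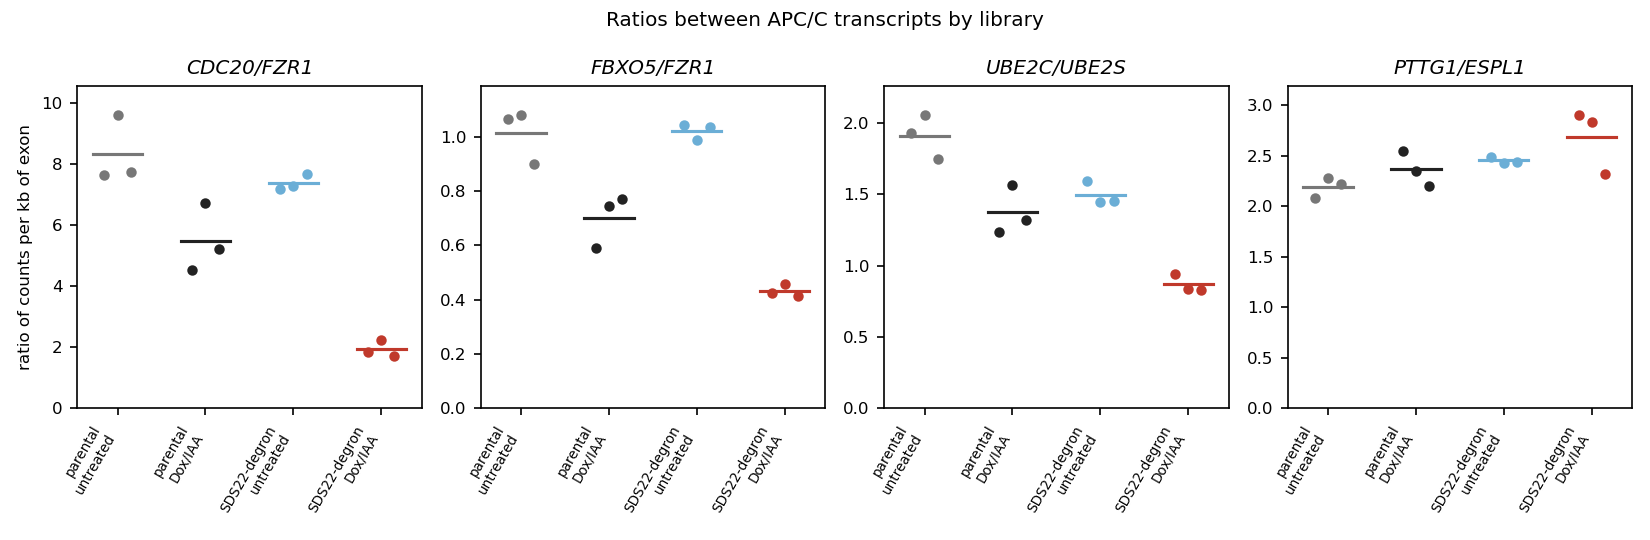
Ratios of counts per kb of exon (linear axes from 0) in each library for CDC20/FZR1, FBXO5/FZR1, UBE2C/UBE2S and PTTG1/ESPL1. Points are libraries and lines are group means. The first 3 ratios are lowest in treated SDS22-degron cells (1.94, 0.43 and 0.87 on average), while PTTG1/ESPL1 stays between 2.08 and 2.90.

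Several of the 10 genes have near-identical copies, mostly processed pseudogenes, to which reads may have been assigned. Over all libraries the counts on CDC20P1 were 40.6% of those on CDC20, those on UBE2SP1 and UBE2SP2 57.7% and 31.6% of UBE2S, those on the securin paralogs PTTG3P and PTTG2 48.4% and 18.7% of PTTG1, and those on UBE2CP1 and UBE2CP4 9.52% and 6.43% of UBE2C. UBE2CP3, UBE2CP2 and the 3 copies of CDC27 each had at most 2.39% of the counts of the gene, and ANAPC1P1 had 0. The copies moved with their parent genes in treated SDS22-degron cells: the log2 fold change was -1.82 for CDC20P1, -0.76 and -0.69 for UBE2SP1 and UBE2SP2, -1.19 and -1.21 for PTTG3P and PTTG2, and -1.51 for both UBE2CP1 and UBE2CP4. The share of the copies in the sum of a gene and its copies was nearly the same in all groups, at 27.7% to 29.4% for CDC20, 47.0% to 47.4% for UBE2S and 39.7% to 40.7% for PTTG1. With the copies added to each gene, the log2 fold changes in treated SDS22-degron cells were -1.74 for CDC20, -1.51 for UBE2C, -0.73 for UBE2S and -1.22 for PTTG1. The levels of these genes relative to others are therefore uncertain by the share of the copies. With the copies, UBE2S in treated SDS22-degron cells would lie at 63.8 ± 3.98 CPM per kb (SD, n = 3), above CDC20 (39.9 ± 2.05), UBE2C (34.3 ± 3.83) and CDC27 (25.7 ± 1.95) without overlap. PTTG1 would lie at 19.3 ± 2.83, above FZR1 and overlapping CDC16. In the other 3 groups PTTG1 would come before CDC27, and UBE2S would come before UBE2C on average in treated parental and in untreated SDS22-degron cells.

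In SDS22-degron cells, Dox/IAA changed each of the other 10 core subunits by less than CDC20, UBE2C and UBE2S. It lowered ANAPC15 (log2 fold change -0.61), which promotes turnover of the checkpoint complex on the APC/C, ANAPC7 (-0.40), ANAPC4 (-0.30) and ANAPC5 (-0.18), and raised ANAPC16 (0.18). ANAPC15 went from 28.6, 31.1 and 30.5 CPM to 20.1, 20.1 and 18.9 CPM, whereas ANAPC16 went from 79.2, 80.6 and 83.6 CPM to 88.8, 96.0 and 91.8 CPM. ANAPC2 (-0.17), which forms the cullin part of the catalytic core, and its RING partner ANAPC11 (-0.04) did not pass the test, and neither did ANAPC10 (-0.14), CDC26 (-0.18) and ANAPC13 (0.06). Together with CDC27, CDC16, CDC23 and ANAPC1, 7 of the 14 core subunits were lower (25.5% of all tested genes) and 1 was higher (26%), with a median of -0.18. In parental cells 2 of the 14, ANAPC1 and ANAPC5, were lower, a share close to the 15.7% of all tested genes. In the interaction 3 were lower (8.35%), namely ANAPC1, ANAPC7 (-0.32) and ANAPC15 (-0.41). Without treatment ANAPC13 was the only core subunit that differed between the lines (-0.26; 15% of all tested genes were lower and 13.2% higher).

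Known substrates of the complex, 28 genes, fell as a whole list. Like the other lists, it was chosen with earlier results of these data known, so its shares are a description and not independent support. All 28 were lower in treated SDS22-degron cells than in untreated ones, with log2 fold changes between -1.70 and -0.81 and a median of -1.32 (25.5% of all tested genes were lower). In parental cells 2 of the 28, AURKB (-0.29) and TPX2 (-0.30), were lower and none was higher, with a median of -0.15, while 15.7% of all tested genes were lower and 15.9% higher. All 28 were also lower in the interaction (8.35% of all tested genes), where the median was -1.18 against -0.0019 for all tested genes. The 3 with the smallest p were AURKB (-1.35), a kinase of the chromosomal passenger complex, ANLN (-1.42), the contractile ring protein anillin, and TK1 (-1.10), a thymidine kinase. AURKB, for example, was at 78.8, 79.0 and 81.3 CPM in untreated and 26.9, 25.2 and 24.5 CPM in treated SDS22-degron cells. Between the untreated lines 6 substrates were higher in SDS22-degron cells (13.2% of all tested genes), and PLK1 (-0.31), KIF22 (-0.33) and SGO1 (-0.40) were lower (15%).

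The spindle-assembly checkpoint holds CDC20 inactive until the chromosomes are attached. Of 8 genes listed for it, which include TRIP13 and MAD2L1BP that disassemble the checkpoint complex, 6 fell in treated SDS22-degron cells (25.5% of all tested genes) and 5 were lower in the interaction (8.35%). In parental cells only TRIP13 was lower (-0.36; 15.7% of all tested genes). The smallest p in the interaction were those of BUB1B (-1.34), BUB1 (-1.42) and TRIP13 (-0.98). MAD2L1BP was called higher in treated SDS22-degron cells (0.21, adjusted p = 0.0478), and its value in parental cells was of the same size (0.21, adjusted p = 0.0715), with an interaction of -0.0024. In the separase and cohesin list 7 of 10 were lower in treated SDS22-degron cells (25.5% of all tested genes) and NIPBL (0.21), the cohesin loader, was higher (26%). In the interaction 5 of the 10 were lower (8.35%), among them ESPL1 (-1.23), CDCA5 (-1.146) and SGO1 (-1.28). CDCA5, SGO1 and BUB1 are also among the 28 substrates.

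Of 9 genes of the SCF complex, the other main ubiquitin ligase of the cell cycle, 3 were lower and 3 higher in treated SDS22-degron cells. The shares over all tested genes were 25.5% and 26%. In parental cells 1 was lower and 2 were higher (15.7% and 15.9% of all tested genes). The counts in both lines were thus near these shares. In the interaction 2 were lower (8.35%) and 0 higher (6.03%). In treated SDS22-degron cells the F-box protein genes CCNF (-1.21) and SKP2 (-0.88) and the SKP2 cofactor CKS1B (-0.87) were lower, whereas SKP1 (0.22), BTRC (0.25) and FBXW11 (0.21) were higher and CUL1, RBX1 and FBXW7 did not pass the test. In parental cells BTRC (0.20) and FBXW11 (0.23) were higher as well and CKS1B (-0.42) was lower, while SKP1 (0.12) did not pass. In the interaction CCNF (-1.02) and SKP2 (-0.64) passed, whereas CKS1B (-0.46), SKP1 (0.10), BTRC (0.05) and FBXW11 (-0.02) did not. SKP2 was also counted among the APC/C substrates above. Of 6 further modulators, 4 passed the filter on low counts. PTTG1IP, which encodes a securin-binding protein, was higher in treated SDS22-degron cells (0.72) and in the interaction (0.45), opposite to PTTG1. It was also called higher with Dox/IAA in parental cells (0.28) and in untreated SDS22-degron against untreated parental cells (0.33). With Dox/IAA in SDS22-degron cells, PTTG1IP rose from 207, 226 and 246 CPM to 350, 353 and 417 CPM. USP37, a deubiquitinase, was lower (-0.21), and OTUD7B (0.14) and the E2 enzyme gene UBE2D1 (-0.19) did not pass. USP44 had 0 counts, and FBXO43, the germ-cell relative of FBXO5, had 0 to 3.

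**Figure D4:**
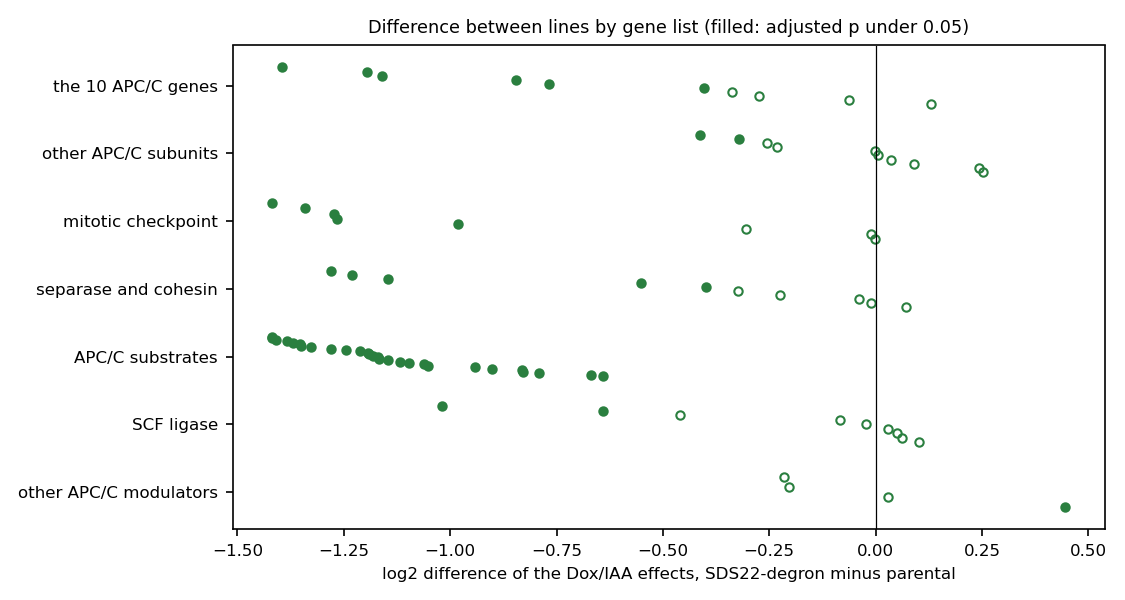
Interaction log2 values (effect of Dox/IAA in SDS22-degron minus that in parental cells) for the genes of each list. Filled points have an adjusted p under 0.05. All 28 substrates lie between -1.42 and -0.64, while the other APC/C subunits lie between -0.41 and 0.25.

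Finally, genes with the profile most like that of the coactivators were sought over the 12 libraries, among 10463 named genes with at least 10 CPM, as the root mean square difference of centred log2 CPM. For CDC20 these were its pseudogene CDC20P1 (0.0688), the CDK1-inhibitory kinase gene PKMYT1 (0.103), the replication initiation factor gene TICRR (0.104), the kinetochore protein gene CENPF (0.107) and BUB1B (0.115), against a spread of CDC20 itself of 0.743. For FZR1 these were KBTBD2 (0.0591), GPAT4 (0.0622), MAD2L1BP (0.067), PHF23 (0.0671) and DYNC1I2P1 (0.0723), against its own spread of 0.155. The CDC20-like genes had log2 fold changes of -1.82 to -1.5 in treated SDS22-degron cells and -0.29 to -0.16 in treated parental cells. The FZR1-like genes had values of 0.17 to 0.30 and 0.18 to 0.34. As the genes were chosen by their profile over these same libraries, the similar fold changes follow from the choice and are no separate result. CDC20P1 may also have been assigned reads of CDC20.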

How the data were processed

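Poly-A selected, stranded libraries of single reads were made from 3 biological replicates per group, and groups were taken from the sample labels. The deposited values are whole-number read counts that the authors had not normalised, along with the position, length and GC percent of each gene. The submitters' processing notes name cutadapt 1.15, Bowtie2 2.3.3.1, STAR 2.5.2b, SAMtools 1.5, featureCounts 1.5.3 and GRCh38, and all 10 genes overlapped their RefSeq position on GRCh38.p14. The annotation release, the strand setting and the treatment of reads that map to several places are not given in the sources used here. The precision is limited by the 12133915 to 14657508 counts per library and by 3 replicates.

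Genes were filtered with filterByExpr (minimum count 10), which left 16657 of 58233. Counts were TMM-normalised and fitted with edgeR 4.0.16 (R 4.3.3), in a model of 4 group means. Comparisons used the two-sided quasi-likelihood F test with Benjamini-Hochberg adjustment over all tested genes, and called means an adjusted p under 0.05. The study itself used the likelihood ratio test of edgeR and called genes at p under 0.05 before adjustment with a change beyond 1 on the log2 scale. The F statistic of each fold change gave its SE and 95% confidence interval. Ratios were tested by exact permutation. The labels do not say what a replicate number marks. In the data, deviations from the group means correlated between same-numbered libraries at 0.124, 0.246 and 0.131 for untreated and treated parental cells. For the treated lines the values were 0.101, 0.133 and 0.138. With a limit of 0.1, the numbers were taken to pair these groups. For the untreated lines the values were 0.0584, 0.0983 and 0.118, against -0.0795 to -0.0111 between different numbers, so that their pairing was not settled. For untreated and treated SDS22-degron cells the values were 0.0263, -0.00926 and 0.0953, all under the limit. Between different numbers they were -0.0988 to 0.0685, so that this pairing was not settled either. The main fit and the permutation tests did not pair libraries. The fit with the number as a block was an alternative.

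The members and lists were chosen with earlier results of these data known. Named were all 10 members, the 10 other core subunits, the 3 genes of each other list with the smallest p in the interaction, list genes called against the majority, near-identical copies, and the 5 genes most like CDC20 and FZR1. AURKB and PTTG1IP were given per library after their values were seen, and so was the choice of overlapping genes and motifs.

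The alternatives comprised DESeq2 1.42.0, the likelihood ratio test, library size or upper quartile scaling, no filter or a stricter one, only the groups compared, a GC correction, the replicate block, and each library left out. Summing near-identical copies was chosen after seeing the data. The fit was tested on simulated data. The number of columns without a group was 0.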

Additional observations from a re-analysis of the deposited data

Results flagged for a closer look

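For 6 of the 10 genes the effect of Dox/IAA differed between the lines by the test of the difference itself, the interaction of edgeR's quasi-likelihood fit adjusted over all tested genes. The effect in SDS22-degron minus that in parental cells was -1.40 on the log2 scale for CDC20 and -1.20 for PTTG1, whose parental value was -0.03. It was -1.16 for UBE2C and -0.77 for FBXO5. For UBE2S the difference was -0.85, and the 2 effects had opposite signs, 0.12 in parental cells without passing the test and -0.73 in SDS22-degron cells. For ANAPC1, the difference was -0.40, as ANAPC1 fell in both lines.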

How the results depend on the processing

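Of 900 values of single genes under the alternatives, 833 kept their direction and their side of the threshold, 34 lost the call, 14 gained it and 19 changed sign, all of these without a call. With the study's cut-off the number of genes called lower was 4 in SDS22-degron cells, 0 in parental cells, 3 when the treated lines were compared and 3 for the interaction, and the number called higher was 0 in SDS22-degron cells, in parental cells and between the untreated lines. In parental cells the number called lower was 1 with library size only, 2 with upper quartile factors and 1 with only the groups compared. With a GC correction, alone or with the replicate block, 2 genes were higher between the untreated lines, and in SDS22-degron cells CDC16 was called in place of FZR1. Leaving out single libraries gave 7 to 8 genes lower and 0 to 1 higher in SDS22-degron cells, 1 to 4 lower in parental cells, 6 to 7 lower between the treated lines, 1 to 2 higher between the untreated lines and 6 to 8 lower in the interaction. The log2 difference of the CDC20/FZR1 ratio ranged from -1.62 to -1.33.

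The changes of sign were as follows. Without single libraries, the parental log2 fold change ranged from -0.171 to 0.060 for PTTG1, from -0.041 to 0.0024 for CDC16 and from -0.056 to 0.091 for CDC23. FZR1 ranged from -0.048 to 0.111 when the treated lines were compared and from -0.129 to 0.030 in the interaction, and CDC20 (-0.161 to 0.047) and UBE2C (-0.081 to 0.015) between the untreated lines, where the sign changed without parental replicate 2. In parental cells PTTG1 was at 0.027 with library size only and 3.42e-05 with a GC correction, and CDC16 at 0.035 with library size only, 0.00014 with upper quartile factors and 0.0039 and 0.0042 with a GC correction without and with the block. The cause was not tested.

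Over all groups, deviations of same-numbered libraries correlated at -0.0569 to 0.246 (median 0.0946), with 7 of 18 over 0.1, and a library correlated best with its own number in 26 of 36 cases. With the replicate block 8 genes were lower in SDS22-degron cells, 4 in parental cells, 7 when the treated lines were compared and 7 for the interaction, where CDC27 was added. No other call on the 10 genes changed with the block alone.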
